A study of Mus musculus with 46 samples.

Results

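The genes described here are 10 transcriptional targets of the tumour suppressor p53: Cdkn1a, Mdm2, Ccng1, Trp53inp1, Eda2r, Phlda3, Sesn1, Zmat3, Plk2 and Btg2. They were chosen by gene symbol from a list of p53 targets, and all 10 were found among the 55487 genes of the count tables. RNA was sequenced from 46 mouse libraries in 11 groups that belong to 3 experiments. In the first, islets were labelled Tfam control (5 female and 3 male libraries) or Tfam KO (4 female and 2 male). In the second, islets were labelled Clec control or Clec16a KO, each on a diet given as RFD (4 control and 4 KO libraries) or HFD (6 control and 5 KO); the labels do not write these diets out. In the third, livers were labelled control (6 libraries), Mfn DKO (4) or Tfam KO (3), and the sample descriptions of all 3 liver groups, controls included, carry the letters AAV. Islets had been cultured overnight after isolation and livers flash frozen. The Cre driver or promoter, the strain, the age and whether animals were pooled are not given in the sources used here. Samples are titled as biological replicates, but no animal is named, so the p-values measure the spread between these libraries. Because every library is bulk RNA, fewer cells of a type and less RNA per cell cannot be told apart for any gene below.

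p53 is a transcription factor that Mdm2, itself a p53 target, marks for degradation. Damage to DNA, ribosome stress and other insults release p53 from Mdm2, and p53 then binds pairs of half-sites near its targets. Cdkn1a encodes p21, an inhibitor of cyclin-dependent kinases that arrests the cell cycle. Several of the targets also have p53-independent control: Cdkn1a, Btg2, Plk2 and the sestrins respond to other stress or growth signals as well. Tfam packages and transcribes mitochondrial DNA, the mitofusins Mfn1 and Mfn2 fuse mitochondrial outer membranes, and Clec16a is a ubiquitin ligase of the mitophagy pathway.

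Promoters are shown for 3 of the genes because the p53 half-site, a sequence of 10 bases, occurs in each of them. RefSeq promoter entries (GRCm38.p6, from 250 bases before to 50 bases after a transcript start) were present for 8 of the 10 genes, and Trp53inp1 and Zmat3 had no entry. The Cdkn1a window held 2 half-sites with 12 bases between them, the Mdm2 and Ccng1 windows held 1 each, and a second Sesn1 start held 1. Only exact matches were counted. The 10 bases directly after the second Cdkn1a half-site depart from the pattern at 1 base, and lie mostly beyond the stretch printed below. Below are the first 210 bases of 3 of these windows, at chr17:29090729-29090938 on the plus strand for Cdkn1a, chr10:117710799-117711008 on the minus strand for Mdm2 and chr11:40755327-40755536 on the minus strand for Ccng1. Each runs 5′ to 3′ toward the transcript start, and the capitals mark the half-sites.
Cdkn1a: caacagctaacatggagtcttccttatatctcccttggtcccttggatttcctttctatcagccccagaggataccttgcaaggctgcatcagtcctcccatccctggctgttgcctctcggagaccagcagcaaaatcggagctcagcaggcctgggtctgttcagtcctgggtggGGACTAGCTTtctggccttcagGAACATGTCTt
Mdm2: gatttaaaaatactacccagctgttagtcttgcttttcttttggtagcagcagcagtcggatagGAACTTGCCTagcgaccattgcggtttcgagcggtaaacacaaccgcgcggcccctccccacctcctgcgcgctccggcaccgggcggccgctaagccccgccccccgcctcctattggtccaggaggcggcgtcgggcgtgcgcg
Ccng1: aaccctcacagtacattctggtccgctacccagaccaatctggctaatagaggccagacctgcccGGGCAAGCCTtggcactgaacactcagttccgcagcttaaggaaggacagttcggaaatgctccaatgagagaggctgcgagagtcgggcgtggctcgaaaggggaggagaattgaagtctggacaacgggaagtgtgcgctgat

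Searched on both strands, a half-site occurred in 2745 of the 32851 promoters of the same length in the table (8.36%). A pair with at most 13 bases between its half-sites, the arrangement found at Cdkn1a, occurred in 24 (0.0731%). No half-site was found in the Eda2r, Phlda3, Plk2 or Btg2 windows, nor at the second Cdkn1a start. The motif TGATGNAA, a composite site of the stress factors ATF4 and CHOP, was found in 1304 promoters (3.97%) and in none of those of the 8 genes. These matches describe letters in a short window and say nothing of binding.

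Total counts per library ran from 16235173 to 83342809. Tfam itself was at 16.0 to 18.9 CPM (counts scaled to a common library size, with TMM factors; all CPM below are on this scale) in Tfam KO islets against 37.8 to 44.7 in their controls, and at 13.1 to 15.9 in Tfam KO livers against 54.2 to 66.2. Mfn1 and Mfn2 were at 24.9% and 24.3% of the control level in Mfn DKO livers. Transcripts of Clec16a were no less abundant under the label Clec16a KO (log2 difference 0.13 ± 0.13 (SE) on RFD, adjusted p = 0.612, and 0.08 ± 0.11 on HFD, adjusted p = 0.74, by edgeR). The deleted part of the gene is not given, so this gene-level count neither checks nor contradicts the label. Islet libraries carried all 8 beta cell markers and liver libraries all 8 hepatocyte markers. By Xist level, all 19 Clec16a islet libraries were female, the Tfam islet libraries matched their labelled sex, and each liver group held both sexes. Replicate 4 of the Clec16a KO islets on HFD and replicates 2 and 3 of the Tfam KO livers stood apart from their groups. For the p53 targets, the comparisons of these groups with controls are given with and without them. For Trp53, p53 regulators, stress response, cell cycle and immediate early genes, the tests of these groups are given with them only. Those results may rest on these libraries.

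In control tissue the 10 genes differed widely in abundance, and islets and livers ordered them differently. Levels of different genes are compared here on the deposited TPM, which corrects for transcript length. In female Tfam control islets Btg2, an antiproliferative cofactor, was highest at 93.8 ± 16.4 TPM (SD, n = 5), followed by Ccng1 (cyclin G1, a regulator of the p53 and Mdm2 loop) at 54.4 ± 7.05. Mdm2, Sesn1 and Trp53inp1 followed at 29.8 ± 4.05, 26.5 ± 2.84 and 22.3 ± 4.70, neighbours whose SDs overlap. Cdkn1a (8.97 ± 1.95) and Zmat3 (8.87 ± 1.78) could not be ordered, Plk2 and Phlda3 were lower, and the receptor gene Eda2r was lowest at 0.46 ± 0.13. In control livers Trp53inp1 was at 34.6 ± 12.0 TPM (SD, n = 6) and Ccng1 at 23.5 ± 4.45, and their SDs overlap. Mdm2 at 13.6 ± 1.02, Btg2 at 10.2 ± 3.86 and Sesn1 at 9.36 ± 1.16 followed, with Btg2 overlapping both of its neighbours, and then Plk2 at 5.40 ± 1.06. Cdkn1a (2.15 ± 1.88), Phlda3 (2.14 ± 0.71) and Zmat3 (1.90 ± 0.20) could not be ordered in livers, and Eda2r was again lowest at 0.28 ± 0.13. Eda2r rested on as few as 3 counts in one Clec control library on HFD, so its values are the least precise of the 10.

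**Figure D1:**
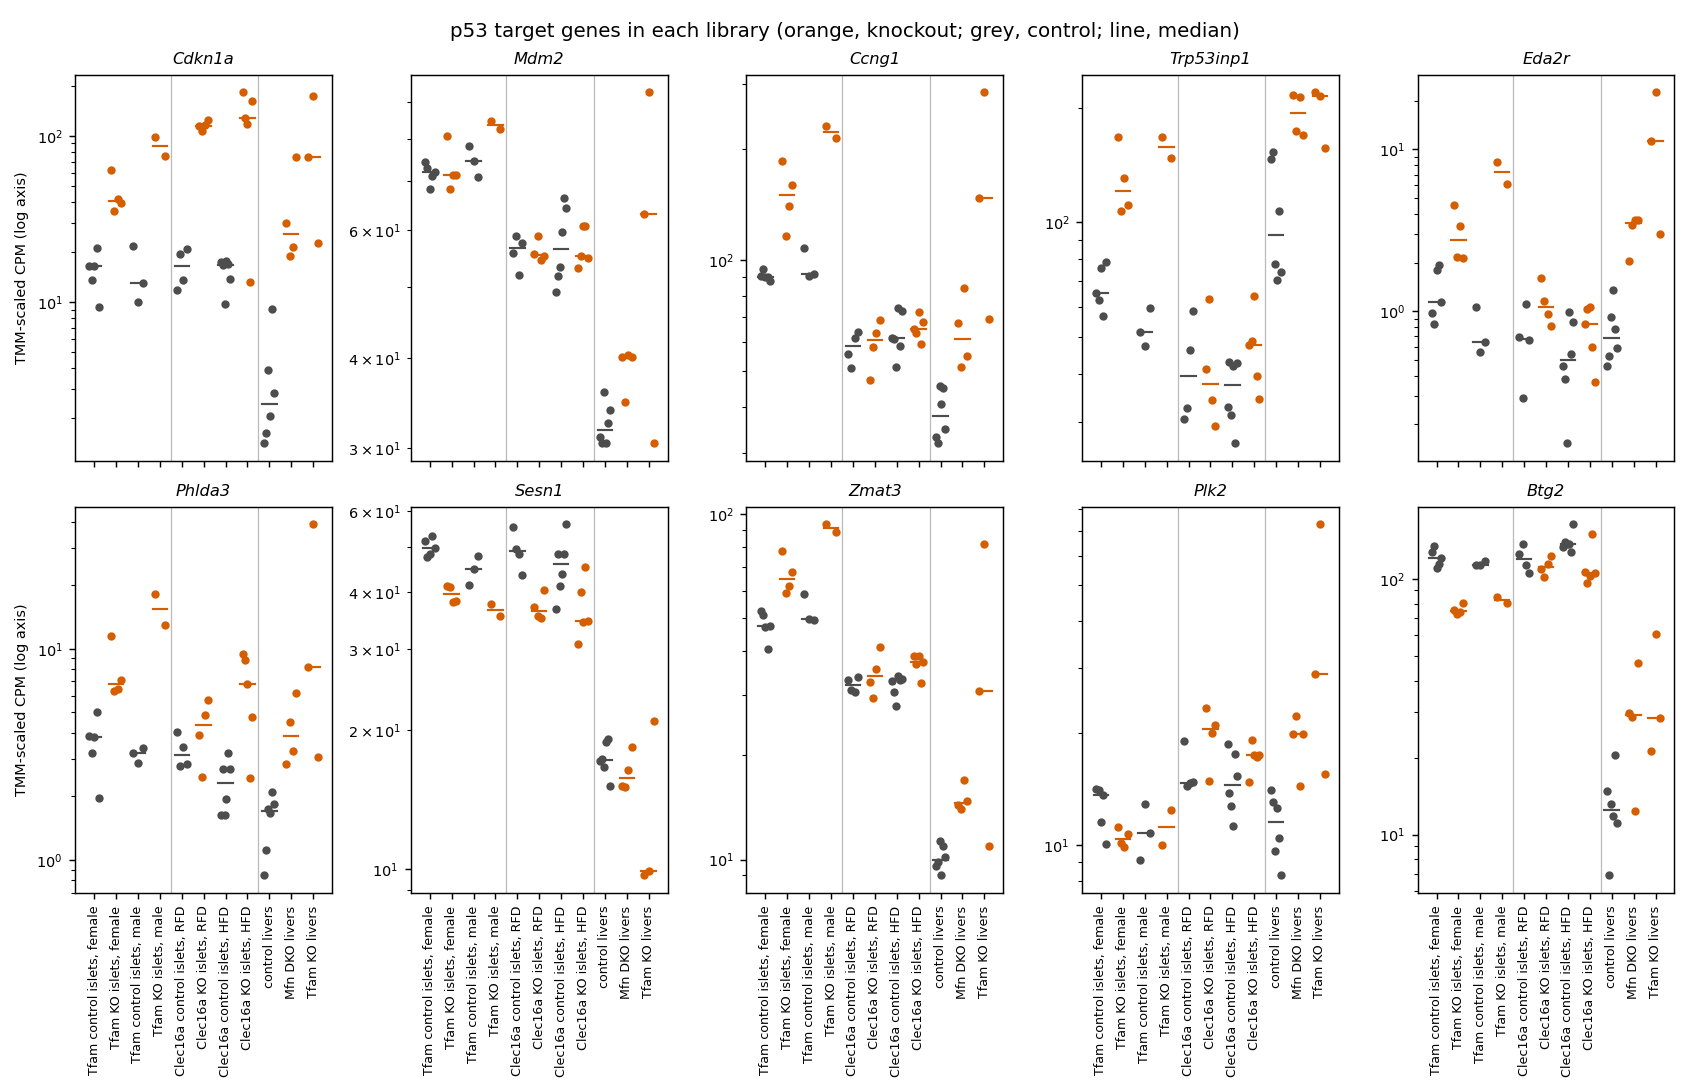
TMM-scaled CPM of each of the 10 genes (log axis, 1 panel per gene) in every library of the 11 groups, with knockout libraries in orange, control libraries in grey and a line at each group's median. Cdkn1a stands above its controls in every knockout group, except for a single Clec16a KO library on HFD at 13.2 CPM, while Mdm2 in islets lies between 49.3 and 84.9 CPM in all groups.

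Loss of Tfam in islets was accompanied by higher Cdkn1a, Ccng1, Trp53inp1, Eda2r, Phlda3 and Zmat3 and by lower Sesn1 and Btg2. Of the 10 genes, 8 passed the test (edgeR's quasi-likelihood test with genotype and sex, Benjamini-Hochberg adjusted p at or under 0.05), where 20.9% of the 19752 genes tested did. The median log2 fold change of the 10 was 0.75, against -0.01 over all genes tested. Cdkn1a was at 16.4, 13.7, 16.6, 21.1 and 9.28 CPM in female controls and at 21.8, 10.02 and 13.1 in male controls. It was at 62.4, 35.5, 41.8 and 39.3 CPM in female KO islets and at 97.9 and 75.6 in male KO islets. Every KO library lay above every control library, and the log2 fold change was 1.90 ± 0.22 (SE, edgeR adjusted p = 1.62e-05), or 3.74-fold.

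The cyclin gene Ccng1 ranged from 87.4 to 108 CPM over the 8 control libraries. It was at 186, 116, 140 and 159 CPM in female and at 231 and 214 in male Tfam KO islets, again without overlap (log2 fold change 0.90 ± 0.10, edgeR adjusted p = 8.96e-06). Trp53inp1, a stress-induced regulator of p53 phosphorylation and autophagy, was at 47.4 to 78.9 CPM in controls and at 107 to 168 in KO islets (log2 1.16 ± 0.13, edgeR adjusted p = 8.19e-06). Phlda3, an inhibitor of Akt at the membrane, was at 1.97 to 5.04 CPM in controls. It was at 11.5, 6.3, 6.44 and 7.12 in female and at 18.1 and 12.9 in male KO islets, all above the controls (log2 1.56 ± 0.23, edgeR adjusted p = 1.56e-04). Eda2r, a death-receptor relative that binds ectodysplasin A2, was at 0.56 to 1.93 CPM in controls and at 2.15 to 8.37 in KO islets (log2 1.95 ± 0.35, edgeR adjusted p = 7.95e-04). Zmat3, an RNA-binding regulator of splicing, had the smallest rise of the 6, from 40.7 to 58.6 CPM in controls to 59.1 to 93.3 in KO islets (log2 0.59 ± 0.08, edgeR adjusted p = 7.31e-05).

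Mdm2 did not follow these genes in Tfam KO islets. It was at 68.3 to 78.4 CPM in controls, at 80.8, 68.4, 71.4 and 71.5 in female KO islets and at 84.9 and 82.8 in male KO islets. Within males alone the 2 KO libraries lay above all 3 controls, at 70.9 to 78.4 CPM. Their log2 difference of 0.17 ± 0.09 did not pass (edgeR adjusted p = 0.254). Within females the groups overlapped (log2 0.02 ± 0.06, edgeR adjusted p = 0.870). Over both sexes the groups overlapped and the log2 difference of 0.07 ± 0.05 did not pass (edgeR adjusted p = 0.355). On total library counts without TMM, an alternative chosen after seeing the data, it was 0.28 and passed (adjusted p = 0.00296); that scaling moved the median of all genes to 0.20, so Mdm2 stood 0.08 above it either way. Plk2, a polo-like kinase, also overlapped between groups (log2 -0.16 ± 0.10, edgeR adjusted p = 0.305). Btg2 fell from 110.4 to 135 CPM in controls to 72.5 to 84.7 in KO islets (log2 -0.61 ± 0.06, edgeR adjusted p = 2.15e-06). Sesn1, a stress-induced inhibitor of mTORC1 signalling, was at 41.4 to 52.9 CPM in controls and at 35.5 to 41.3 in KO islets (log2 -0.32 ± 0.05, edgeR adjusted p = 2.35e-04). The Sesn1 fall depends on the scaling: it was -0.11 and did not pass on total counts (adjusted p = 0.13), and mean TPM was 27.1 in KO against 25.7 in control islets, while the median gene rose by 0.39 on the log2 TPM scale.

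The rises were seen in both sexes. Within females the log2 fold changes were 1.54 for Cdkn1a, 0.73 for Ccng1, 0.93 for Trp53inp1, 1.19 for Eda2r and 1.13 for Phlda3, and within males they were 2.53, 1.2, 1.57, 3.26 and 2.29. In females 8 of the 10 genes passed, where 10.8% of all genes did, and in males 8, where 8.93% did. The difference between the sexes was itself tested: 0 of the 10 genes passed in edgeR, where 0% of all genes did. At an unadjusted p under 0.05 in edgeR there were 5 of the 10, and 1230 of all 19752 genes tested. The DESeq2 Wald test called 1 of the 10 (0.172% of all genes). That gene was Eda2r, whose male effect exceeded the female one by 2.06 ± 0.50 on the log2 scale (edgeR adjusted p = 0.542, and 0.0308 in the Wald test). With 2 male KO libraries, this comparison has little precision. Other cell types differed between the same groups: all 8 beta cell markers tested were called lower in Tfam KO islets, and their summed level was 246588 to 311538 TPM against 322297 to 454623. Summed endothelial markers were at 83.8 to 104 TPM against 49.6 to 78.4, without overlap, and summed fibroblast and stellate markers at 18.9 to 34.4 against 12.4 to 22.4. Summed macrophage markers were at 43.7 to 162 TPM against 20.9 to 92.3, and summed T and B cell markers at 4.37 to 9.82 TPM against 12.3 to 21.2. On the log2 TPM scale the median gene rose by 0.39 in Tfam KO islets, and these sums are not corrected for that shift. The part of these differences in the changes of the p53 targets was not tested.

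In islets labelled Clec16a KO, Cdkn1a was the gene of the 10 that changed most, and most of the others stayed near their control levels. On RFD, 1 of the 10 genes passed (7.52% of 17254 genes tested did), and the median log2 difference of the 10 was 0.08, against -0.002 over all genes. Cdkn1a was at 11.9, 19.3, 13.5 and 20.9 CPM in RFD controls and at 114, 107, 116 and 125 in KO islets on RFD. The groups were far apart, with a log2 fold change of 2.81 ± 0.45 (edgeR adjusted p = 0.00263), or 7.02-fold. Sesn1 was at 55.2, 49.7, 48.3 and 43.5 CPM in controls and at 37.2, 35.5, 35.0 and 40.4 in KO islets. These groups did not overlap either, but the log2 difference of -0.41 ± 0.13 missed the threshold (edgeR adjusted p = 0.0513). Under 4 of the alternatives it passed, with adjusted p from 0.0254 to 0.0491. Eda2r (0.73 ± 0.46), Phlda3 (0.39 ± 0.34) and Plk2 (0.33 ± 0.16) did not pass, and Mdm2, Ccng1 and Trp53inp1 were within 0.04 of no difference on the log2 scale.

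On HFD, 2 of the 10 genes passed (9.57% of all genes did), Cdkn1a and Phlda3, with a median of 0.21 for the 10 against -0.002 over all genes. Cdkn1a ran from 9.69 to 17.6 CPM in the 6 HFD controls, with a median of 16.8. It was at 183, 128, 117, 13.2 and 162 CPM in the 5 KO libraries, so that 4 lay far above the controls and replicate 4 among them. The log2 fold change was 2.97 ± 0.38 (edgeR adjusted p = 2.59e-04). Phlda3 ran from 1.63 to 3.21 CPM in controls, with a median of 2.31, and was at 9.40, 8.84, 6.85, 2.44 and 4.74 in KO islets (log2 1.47 ± 0.29, edgeR adjusted p = 0.00359). Replicate 4 again lay among the controls.

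Replicate 4 of the Clec16a KO islets on HFD differed from the other 4 beyond these genes. Its integrated stress response score, the mean log2 difference of 15 genes from the control libraries, was -0.16, against 1.58 to 1.84 in the others. Its summed beta cell markers were at 445754 TPM against 313268 to 391627, and its summed endothelial markers at 83.9 against 141 to 215. Without it, 5 of the 10 genes passed on HFD, where 20.0% of all genes did: Cdkn1a and Phlda3 as before, Zmat3 higher by 0.25 (edgeR adjusted p = 0.046), and Btg2 and Sesn1 lower, at -0.44 (edgeR adjusted p = 0.00111) and -0.39 (edgeR adjusted p = 0.0121). With it, those values were 0.20 for Zmat3 (edgeR adjusted p = 0.141), -0.32 for Btg2 (edgeR adjusted p = 0.0649) and -0.31 for Sesn1 (edgeR adjusted p = 0.078). Leaving out HFD control replicate 1 also brought Sesn1 past the threshold, at -0.37 (edgeR adjusted p = 0.0311).

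Diet itself had no detected effect on the 10 genes. By edgeR, 0 of the 10 passed between HFD and RFD in control islets (0.0406% of all genes did), 0 in Clec16a KO islets (0.0116%) and 0 in the interaction of genotype with diet (0%). At an unadjusted p under 0.05 the numbers were 0, 0 and 1, where 973, 946 and 406 of all 17254 genes tested had one. The DESeq2 Wald test called 0 of the 10 in each, and its share of all genes is not given here. The gene with the unadjusted p under 0.05 in the interaction was Phlda3, whose genotype effect was 1.08 ± 0.44 larger on HFD. File names of the Clec16a islet libraries give sequencing lanes 7 and 8. Within lane 7 the log2 difference of Cdkn1a was 2.96 on RFD (3 KO and 2 control libraries) and 3.61 on HFD (2 and 3), and within lane 8 it was 2.67 on RFD (1 and 2) and 1.86 on HFD (3 and 3, replicate 4 included). The Phlda3 difference on HFD was 1.77 within lane 7 and 1.04 within lane 8. Endothelial markers were higher in the same KO islets, with 5 of 7 tested called higher on each diet, and their summed level on RFD was 131 to 153 TPM against 67.2 to 82.9. Also without overlap on RFD, summed fibroblast and stellate markers were at 27.5 to 45.4 TPM against 19.9 to 23.0. Summed duct markers were at 269 to 533 TPM against 214 to 243, and summed T and B cell markers at 4.52 to 8.62 against 12.4 to 28.0. On HFD each of these sums, the endothelial one included, overlapped the controls. The part of these differences in the Cdkn1a difference was not tested.

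**Figure D2:**
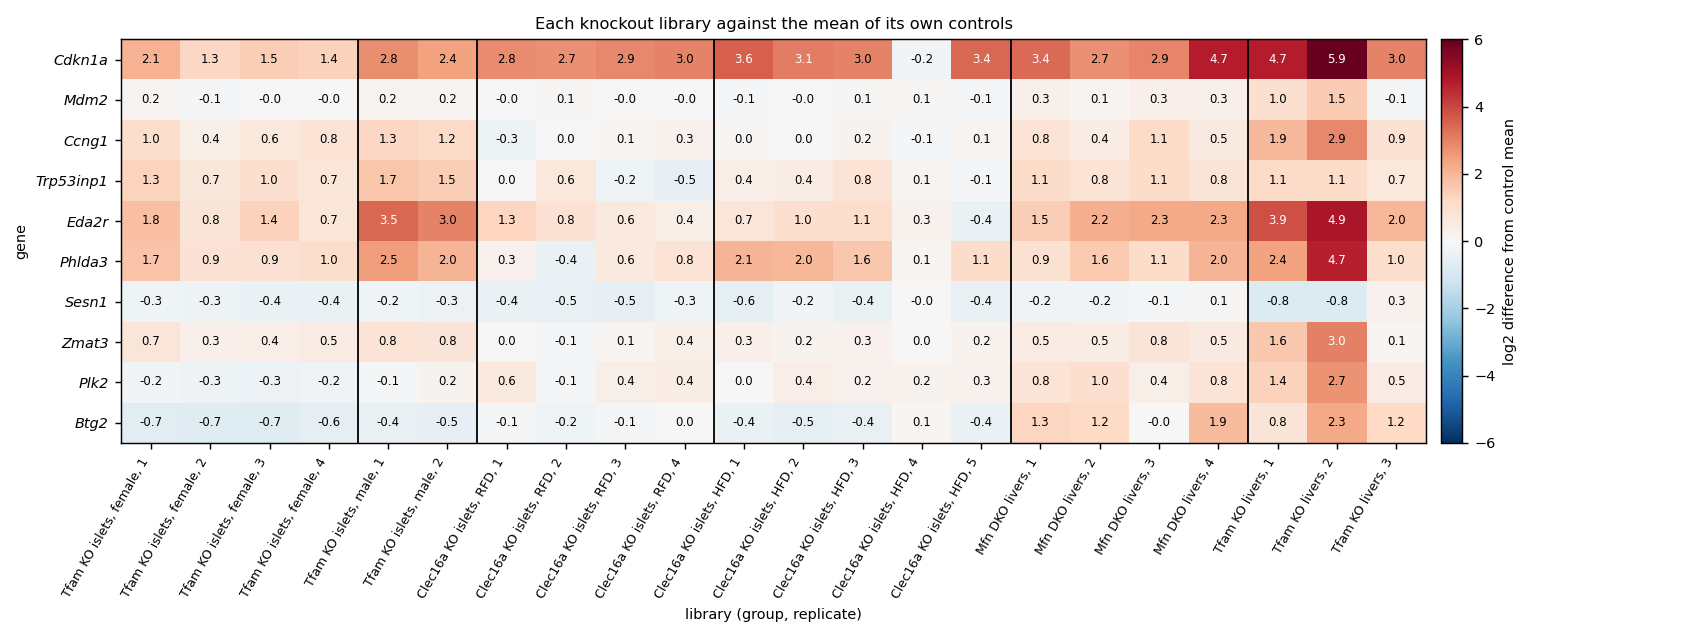
Log2 difference of each gene (rows) in each knockout library (columns, labelled by group and replicate) from the mean of that library's own controls, in colour from blue (lower) to red (higher). The Cdkn1a row is red in all knockout libraries but Clec16a KO HFD replicate 4, and the Tfam KO liver columns differ among themselves, with replicate 2 the reddest.

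In livers labelled Mfn DKO, Cdkn1a, Eda2r and Trp53inp1 rose. These 3 of the 10 genes passed (9.87% of 17024 genes tested did), all of them higher, and the median log2 difference of the 10 was 0.82, against 0.02 over all genes. Cdkn1a was at 1.41 to 9.10 CPM in the 6 control livers, with a median of 2.45, and at 29.8, 19, 21.5 and 74.4 in Mfn DKO livers. All 4 lay above the highest control, and the log2 fold change was 3.36 ± 0.63 (edgeR adjusted p = 0.00722); without the highest library, replicate 4, it was 2.73 (adjusted p = 0.0259). Eda2r ran from 0.46 to 1.36 CPM in controls, with a median of 0.69, and was at 2.05, 3.40, 3.67 and 3.64 in Mfn DKO livers (log2 2.04 ± 0.45, edgeR adjusted p = 0.0152). Trp53inp1 ran from 70.5 to 153 CPM in controls, with a median of 92.6, and was at 216, 173, 213 and 169 in Mfn DKO livers (log2 0.88 ± 0.23, edgeR adjusted p = 0.0325). The Trp53inp1 call was lost when any of control replicates 3, 4, 5 and 6 or any of the 4 Mfn DKO libraries was left out, with edgeR adjusted p from 0.0531 to 0.0976.

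A further 4 genes lay above all controls in every Mfn DKO library without passing the test. They were Ccng1 (51.3 to 83.7 against 31.8 to 45.6 CPM), Phlda3 (2.84 to 6.18 against 0.84 to 2.10), Plk2 (14.4 to 22.3 against 8.27 to 14.1) and Zmat3 (14 to 17.0 against 9.0 to 11.3). Their log2 differences were 0.74 ± 0.29, 1.43 ± 0.53, 0.75 ± 0.32 and 0.57 ± 0.36, with edgeR adjusted p from 0.100 to 0.326. The share of all genes that lay above all controls in this way was not counted. All 3 liver groups share 1 estimate of spread in this fit, and the Tfam KO livers varied widely. With only the control and Mfn DKO livers fitted, 9 of the 10 genes passed, these 4 among them, and the share of all genes that passed rose to 27.0%. Btg2 (log2 1.18 ± 0.37, edgeR adjusted p = 0.0617) overlapped the controls through a single library at 12.3 CPM. It passed on total counts (1.37, adjusted p = 0.0434), and also without Mfn DKO replicate 3 (1.43, adjusted p = 0.0336) or control replicate 5 (1.35, adjusted p = 0.0479). Mdm2 was at 34.7 to 40.4 CPM against 30.5 to 35.9 (log2 0.26 ± 0.21), and Sesn1 at 15.1 to 18.4 against 15.2 to 19.1 (log2 -0.10 ± 0.19), neither passing. With only the control and Mfn DKO livers fitted, Mdm2 passed at the same log2 difference of 0.26 (edgeR adjusted p = 0.0224), and Sesn1 was the gene that did not. Other cell types differed between the same groups: summed endothelial markers were at 104 to 158 TPM against 82.8 to 103 in controls, and summed fibroblast and stellate markers at 123 to 149 against 75.1 to 110.2, both without overlap. Summed macrophage markers were at 563 to 977 TPM against 302 to 635, and summed duct markers at 80.3 to 155 against 36.5 to 83.7. On the log2 TPM scale the median gene rose by 0.33 in Mfn DKO livers, and these sums are not corrected for that shift. The part of these cell types in the result was not tested.

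Livers labelled Tfam KO had the widest change among the 10 genes: 9 rose and none fell, where 29.3% of all genes passed. The median log2 fold change was 1.91, against 0.03 over all genes. This comparison uses the same 6 control livers as the one above, so the 2 sets of fold changes are not independent. Cdkn1a was at 74.3, 175 and 22.7 CPM in the 3 Tfam KO livers, all above the controls (log2 4.69 ± 0.68, edgeR adjusted p = 9.72e-04). Eda2r was at 11.2, 22.6 and 3.02 CPM, also above all controls (log2 3.98 ± 0.48, edgeR adjusted p = 3.82e-04). Phlda3 was at 8.19, 38.9 and 3.09 CPM against 0.84 to 2.10 in controls (log2 3.43 ± 0.56, edgeR adjusted p = 0.00176). The order of the 3 libraries was the same for each of these genes, with replicate 2 highest and replicate 3 lowest.

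Ccng1 was at 147, 285 and 69.1 CPM in Tfam KO livers against 31.8 to 45.6 in controls (log2 2.12 ± 0.31, edgeR adjusted p = 9.74e-04). Mdm2 was at 63.2, 93.0 and 30.5 CPM against 30.5 to 35.9 in controls (log2 0.94 ± 0.23, edgeR adjusted p = 0.00961). Replicate 3 lay at the control level. Zmat3 was at 30.7, 82.0 and 10.9 CPM against 9.0 to 11.3, with the same library inside the control range (log2 2.03 ± 0.38, edgeR adjusted p = 0.00317). Plk2 was at 28.9, 72.9 and 15.5 CPM against 8.27 to 14.1 (log2 1.79 ± 0.34, edgeR adjusted p = 0.00324). Btg2 (21.2, 60.9 and 28.6 CPM) and Trp53inp1 (220, 215 and 157 CPM) also lay above all controls, with log2 fold changes of 1.5 ± 0.40 (edgeR adjusted p = 0.0144) and 0.91 ± 0.25 (edgeR adjusted p = 0.017). Sesn1 was the exception at 9.68, 9.88 and 21 CPM against 15.2 to 19.1, so 2 libraries lay below and 1 above all controls (log2 -0.37 ± 0.21, edgeR adjusted p = 0.206), or 0.01 with total count scaling.

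The size of these changes and the number of calls depended on single Tfam KO livers. Without replicate 2, 6 of the 10 genes passed, where 14.5% of all genes did: Mdm2 (0.54, edgeR adjusted p = 0.0796), Trp53inp1 (0.85, edgeR adjusted p = 0.0626) and Btg2 (0.94, edgeR adjusted p = 0.131) did not. The log2 changes of the other 6 were then 3.79 for Cdkn1a, 3.20 for Eda2r, 1.86 for Phlda3, 1.49 for Ccng1, 1.04 for Zmat3 and 0.97 for Plk2. Without replicate 3 all 10 passed, where 41.8% of all genes did, 9 higher and Sesn1 lower at -0.85 (edgeR adjusted p = 1.77e-04). Without replicate 1, Trp53inp1 was at 0.83 and did not pass (edgeR adjusted p = 0.0649). Summed hepatocyte markers in replicates 1, 2 and 3 were at 80711, 41239 and 109620 TPM, against 88068 to 131916 in controls, and summed duct markers at 46.3, 293 and 106 TPM against 36.5 to 83.7. Summed endothelial markers were at 117 to 162 TPM against 82.8 to 103 and summed fibroblast and stellate markers at 122 to 152 against 75.1 to 110.2, both without overlap. The median gene rose by 0.71 on the log2 TPM scale in Tfam KO livers, and none of these sums is corrected for that shift. The integrated stress response scores of the same libraries were 3.23, 3.88 and 1.90. The library with the lowest hepatocyte sum and the highest duct sum and stress score was thus the one with the highest level of most of the 10 genes, and the part of these measures in the result was not tested. Within sexes read from the RNA, the Cdkn1a log2 difference was 3.89 in females (2 KO and 3 control libraries) and 5.28 in males (1 and 3) for Tfam KO livers, and 3.15 and 3.73 (2 and 3 libraries in each) for Mfn DKO livers. In Mfn DKO livers the female and male differences were 1.78 and 2.30 for Eda2r and 1.03 and 0.85 for Trp53inp1.

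Set directly against Mfn DKO livers, Tfam KO livers had higher values for most of the genes, with a median log2 difference of 1.18 for the 10 against 0.01 over all genes. By edgeR 0 of the 10 passed, where 0.294% of all genes did; 6 of the 10 had an unadjusted p under 0.05, as did 20.4% of all genes, and the DESeq2 Wald test called 4, and 6.39% of all genes. The log2 differences of those 4 were 1.38 ± 0.34 for Ccng1 (edgeR adjusted p = 0.0976), 1.95 ± 0.52 for Eda2r (edgeR adjusted p = 0.101), 2.0 ± 0.62 for Phlda3 (edgeR adjusted p = 0.119) and 1.45 ± 0.43 for Zmat3 (edgeR adjusted p = 0.108). All 10 genes overlapped between the knockouts, and the share of all genes that did so was not counted. Without Tfam KO replicate 3, 7 passed in edgeR, where 24.0% of all genes did: Ccng1, Eda2r, Mdm2, Phlda3, Plk2 and Zmat3 higher and Sesn1 lower. Trp53inp1 was nearly level between the knockouts, at 0.03 ± 0.28.

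**Figure D3:**
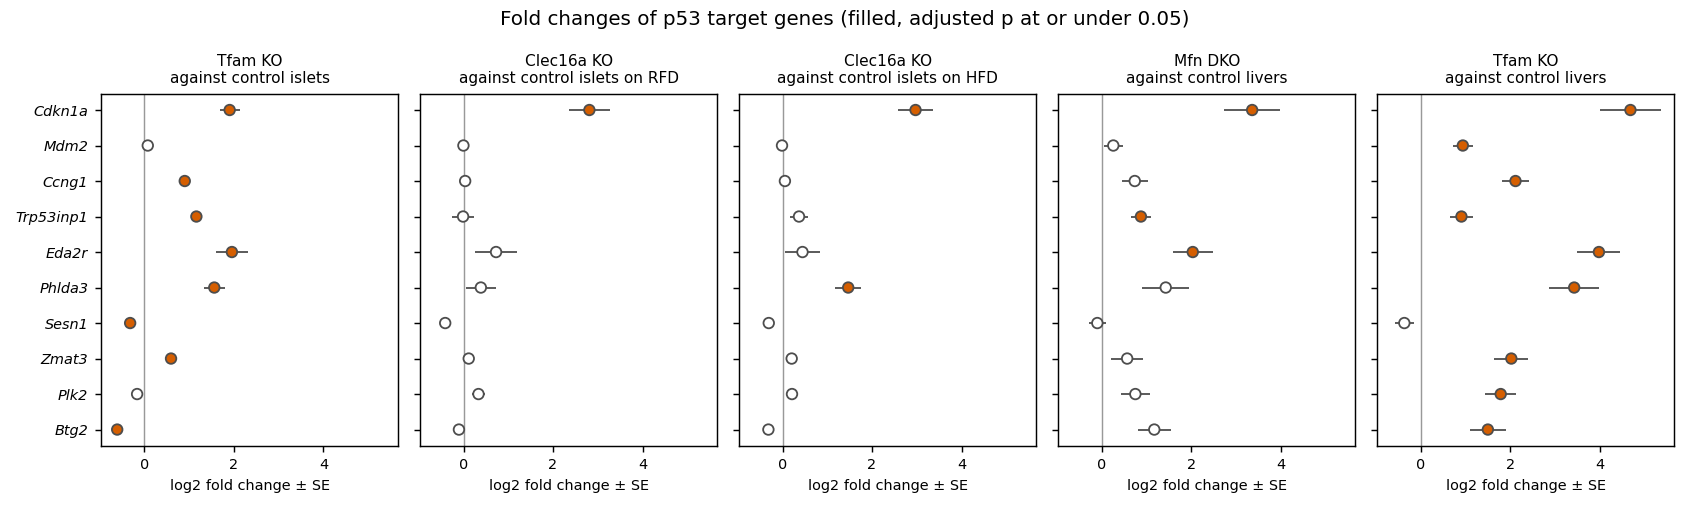
Log2 fold change of each of the 10 genes (points, with bars of 1 SE) in 5 knockout comparisons, filled where the adjusted p was at or under 0.05. Cdkn1a is filled in every panel, from 1.90 in Tfam KO islets to 4.69 in Tfam KO livers, and Sesn1 lies left of 0 in each on this TMM scale, although with total counts it lay at 0.10 in Mfn DKO and 0.01 in Tfam KO livers.

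The response to Tfam loss was larger in livers than in islets for 7 of the 10 genes, where 18.5% of the 21096 genes tested passed in the same fit. The median difference of the 10 was 1.55 on the log2 scale, against 0.06 over all genes. The difference was 2.64 ± 0.66 for Cdkn1a (edgeR adjusted p = 0.0091), 1.90 ± 0.37 for Plk2 (edgeR adjusted p = 0.00211) and 2.07 ± 0.33 for Btg2 (edgeR adjusted p = 4.66e-04), which fell in islets and rose in livers. Differences of 0.83 for Mdm2, 1.14 for Ccng1, 1.75 for Eda2r and 1.38 for Zmat3 passed as well, with edgeR adjusted p from 0.019 to 0.0382. Phlda3 missed the threshold at 1.72 ± 0.62 (edgeR adjusted p = 0.0565). Trp53inp1 (-0.36 ± 0.29) and Sesn1 (-0.07 ± 0.21) did not pass. Tfam itself fell further in livers than in islets in the same fit, by -0.81 ± 0.11 on the log2 scale (edgeR adjusted p = 1.33e-04). The part of this in the larger response was not tested. Tissue and experiment cannot be told apart in this comparison, and the control level of Cdkn1a was lower in livers.

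These differences also rested on single libraries. Without Tfam KO liver replicate 2, those that passed were Btg2 (1.5, edgeR adjusted p = 0.00148) and Plk2 (1.07, edgeR adjusted p = 0.0117), 2 of the 10 genes, where 8.56% of all genes did, while Cdkn1a was at 1.73 (edgeR adjusted p = 0.0863). Without replicate 3 of the same group 9 passed, where 31.0% of all genes did. Without replicate 2 of the male Tfam KO islets 3 passed, where 11.7% of all genes did, and without replicate 1 of that group Zmat3 (1.40, edgeR adjusted p = 0.0551) and Eda2r (1.87, edgeR adjusted p = 0.0642) did not. Eda2r lost its call in 12 of the 23 fits that left out 1 library. Those libraries were control liver replicates 1, 2, 5 and 6, Tfam KO liver replicates 1 and 2, both male Tfam KO islet libraries, female Tfam KO islet replicates 2 and 4, female control islet replicate 3 and male control islet replicate 1. Phlda3 passed without Tfam KO liver replicate 1 (2.02, edgeR adjusted p = 0.033) or female control islet replicate 5 (1.80, edgeR adjusted p = 0.049).

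The gene for p53 itself, Trp53, rose in both Tfam knockouts and passed in no other comparison with controls. It was at 27.4 to 33.2 CPM in Tfam control islets and at 34.1 to 41.3 in Tfam KO islets, without overlap (log2 0.34 ± 0.06, edgeR adjusted p = 9.04e-04). In livers it was at 17.6 to 22.7 CPM in controls, 18.1 to 23.6 in Mfn DKO and 20.0 to 40.3 in Tfam KO (log2 0.65 ± 0.17, edgeR adjusted p = 0.0148, for Tfam KO). Differences were 0.11 in Mfn DKO livers, 0.03 in Clec16a KO islets on RFD and 0.05 on HFD, with edgeR adjusted p of 0.700, 0.913 and 0.852. Transcript levels do not measure the stability or activity of the p53 protein.

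Of 20 tested regulators of p53, 7 were called higher and 1 lower in Tfam KO islets, against 0 in either Clec16a comparison, 2 higher in Mfn DKO livers and 6 higher in Tfam KO livers. The shares called among all genes were 20.9% in Tfam KO islets, 7.52% and 9.57% in the Clec16a comparisons, 9.87% in Mfn DKO livers and 29.3% in Tfam KO livers, so both liver counts of regulators lie close to those of all genes. In Tfam KO islets those with the smallest adjusted p after Rpl5 and Trp53 were the checkpoint kinase gene Chek2 (log2 1.23 ± 0.23, edgeR adjusted p = 0.00129) and the p53 ubiquitin ligase gene Rchy1 (0.38 ± 0.08, edgeR adjusted p = 0.00333). Rpl5, whose free protein binds Mdm2, was higher by 0.52 ± 0.09 in Tfam KO islets (edgeR adjusted p = 3.62e-04) and by 1.07 ± 0.17 in Tfam KO livers (edgeR adjusted p = 0.00134). Rpl11, with the same role, was higher by 0.64 ± 0.14 in Tfam KO livers (edgeR adjusted p = 0.00692). Ribosomal protein genes have near-identical pseudogene copies, so the counts of Rpl5 and Rpl11 are uncertain. The DNA damage kinase gene Atr was called higher in Mfn DKO livers (0.75 ± 0.20, edgeR adjusted p = 0.0379) and in Tfam KO livers (1.09 ± 0.22, edgeR adjusted p = 0.00413), which share their controls. Chek1 was the other call in Mfn DKO livers, at 1.45 ± 0.41 (edgeR adjusted p = 0.0435). Both Mfn DKO calls were unstable: with 1 library left out, 0 or 1 regulator passed. Trp53bp1, which scaffolds repair at DNA breaks, was called higher in Tfam KO livers at 0.76 ± 0.17 (edgeR adjusted p = 0.00735) and lower in Tfam KO islets at -0.36 ± 0.09 (edgeR adjusted p = 0.00995).

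A longer list of other p53 targets was examined in the same way, without a test of the list between knockouts. In Tfam KO islets 11 of 30 were called higher and 0 lower (20.9% of all genes were called), with a list median of 0.22. The 4 with the smallest adjusted p were Zfp365 (log2 1.75 ± 0.10), the nuclease gene Aen (1.06 ± 0.09), the noncoding RNA gene Trp53cor1 (1.71 ± 0.16) and the epoxide hydrolase gene Ephx1 (1.0 ± 0.12), with edgeR adjusted p from 2.48e-09 to 2.13e-05. In Tfam KO livers 13 of 28 were called higher and 1 lower (29.3% of all genes), with a list median of 0.59, led by Psrc1 (4.78 ± 0.83), the apoptosis gene Bax (1.32 ± 0.24), Aen (1.66 ± 0.30) and the ribonucleotide reductase subunit gene Rrm2b (1.08 ± 0.22), with edgeR adjusted p from 0.00229 to 0.00445. Bax was at 18.0 to 49.7 CPM in those livers against 11.8 to 17.1 in controls. Without Tfam KO liver replicate 2 the count called was 7 (14.5% of all genes), and without replicate 3 it was 21 (41.8%). In Mfn DKO livers 3 of 28 were called higher, Ckap2 (2.23 ± 0.48), Rap2b (0.84 ± 0.18) and the apoptosome gene Apaf1 (0.82 ± 0.24), with edgeR adjusted p from 0.0135 to 0.0479, a share close to the 9.87% called among all genes.

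In Clec16a KO islets 4 of 31 other targets were called higher and 1 lower on RFD, and 2 were called higher on HFD. Among all genes 7.52% and 9.57% were called, so the share on HFD is no higher than that of all genes. On RFD these were Trp53cor1 (1.04 ± 0.30), Tigar, a fructose bisphosphatase (0.44 ± 0.13), Aen (0.66 ± 0.20) and Pltp higher and Ak1 lower (-0.34 ± 0.10), with edgeR adjusted p from 0.0421 to 0.0474. With any 1 library left out, 0 to 3 of the 31 passed. On HFD they were Pltp (0.71 ± 0.16, edgeR adjusted p = 0.00827) and Trp53cor1 (1.12 ± 0.26, edgeR adjusted p = 0.0102), and 5 targets passed without replicate 4, where 20.0% of all genes did. Trp53cor1, known as lincRNA-p21, lies at chr17:29057430-29079179 on the minus strand (GRCm38), 11797 bases from Cdkn1a, which lies at chr17:29090976-29100727 on the plus strand. Trp53cor1 was thus called higher together with its neighbour Cdkn1a in the Tfam KO islets and in both Clec16a comparisons. It was not among the targets called in Mfn DKO livers, where Cdkn1a also rose, and its value in Tfam KO livers is not given here.

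Targets of p53 that the integrated stress response also induces rose in part in every knockout. In this response, blocked translation initiation raises the factors ATF4 and CHOP. Of 7 such genes 5 were called higher in Tfam KO islets, 1 and 3 in Clec16a KO islets on RFD and HFD, 4 in Mfn DKO livers and 6 in Tfam KO livers, and none was called lower. The shares of all genes called in these comparisons were 20.9%, 7.52%, 9.57%, 9.87% and 29.3%. Gdf15, a secreted stress cytokine, was called higher in all 5 comparisons, by 2.91 ± 0.22, 4.49 ± 0.77, 4.69 ± 0.66, 2.37 ± 0.49 and 3.72 ± 0.52 on the log2 scale in that order, with edgeR adjusted p from 1.01e-07 to 0.0117. In Clec16a KO islets on RFD it was at 8.31 to 12.2 CPM against 0.27 to 0.69 in controls. Gadd45a, a growth arrest gene, was called higher in Tfam KO islets (1.28 ± 0.10), Clec16a KO islets on HFD (0.81 ± 0.22), Mfn DKO livers (1.94 ± 0.17) and Tfam KO livers (2.03 ± 0.18), with edgeR adjusted p from 1.76e-07 to 0.0271. The mTORC1 inhibitor gene Ddit4 rose by 3.44 ± 0.40 in Mfn DKO livers (edgeR adjusted p = 4.48e-04) and by 2.94 ± 0.41 in Tfam KO livers (edgeR adjusted p = 8.38e-04). Of 15 genes of the integrated stress response, which include Gdf15 and Sesn2 of this group, 15, 13, 12, 10 and 13 were called higher in the 5 comparisons.

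Cell cycle genes that p21 represses through the DREAM complex did not fall in any of the 5 knockout comparisons. In Mfn DKO livers 16 of 20 were called higher and 0 lower, with a list median of 2.03, and in Tfam KO livers 12 of 20 were higher and 0 lower, with a median of 1.28, where 9.87% and 29.3% of all genes were called. Mki67, a marker of cycling cells, was at 1.81 to 3.06 CPM in control livers, 8.13 to 22.7 in Mfn DKO livers and 6.42 to 7.69 in Tfam KO livers. Its log2 fold changes were 2.32 ± 0.27 (edgeR adjusted p = 4.48e-04) and 1.44 ± 0.29 (edgeR adjusted p = 0.00394). The mitotic genes Top2a, Cdc20 and Ccnb2 rose by 2.40, 2.97 and 1.84 in Mfn DKO livers and by 1.45, 1.69 and 0.92 in Tfam KO livers. Cdkn1a and these genes were therefore higher in the same livers. In islets 1 of the 20 was called, Bub1b in Tfam KO islets (0.86 ± 0.21, edgeR adjusted p = 0.00717), and 0 in either Clec16a comparison by edgeR. The endothelial, fibroblast and stellate marker sums of both liver knockouts, given above, lay over those of all controls on TPM. On the log2 TPM scale the median gene also rose, by 0.33 in Mfn DKO and 0.71 in Tfam KO livers. The part of other cell types in the cell cycle values was not tested.

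**Figure D4:**
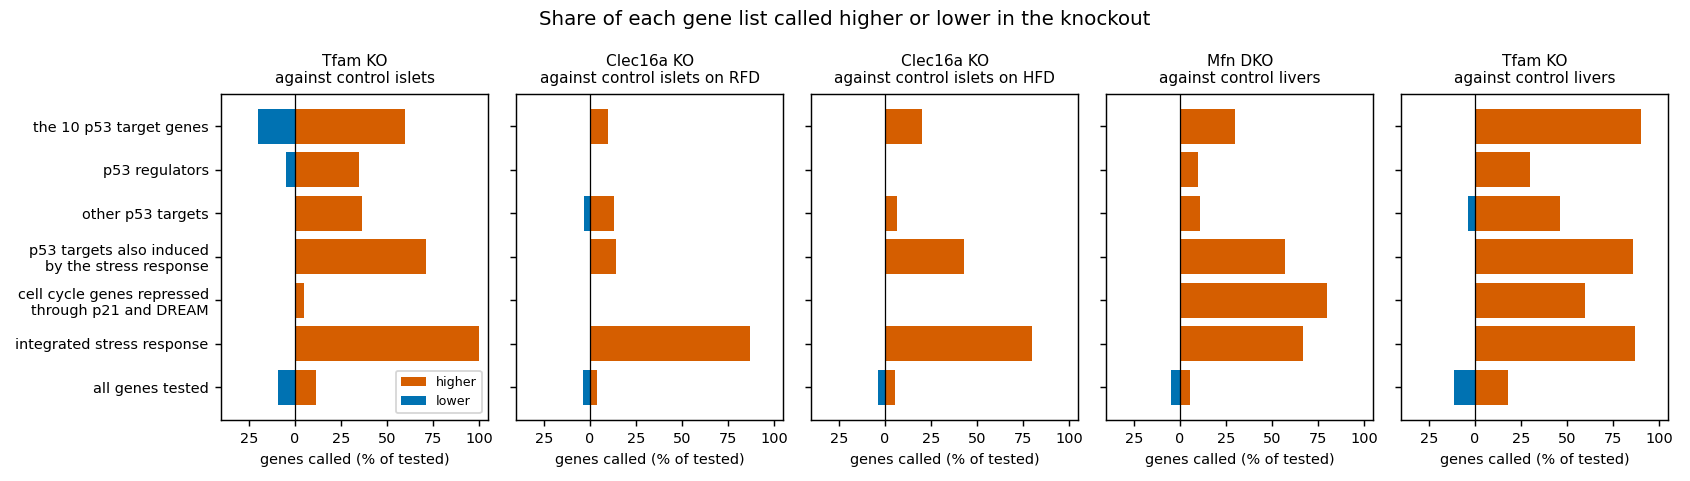
Percentage of the tested genes of each list called higher (orange, to the right) or lower (blue, to the left) in 5 knockout comparisons, with all genes tested in the lowest row. The 10 p53 target genes reach 90% higher in Tfam KO livers, and the integrated stress response row is the longest in both Clec16a comparisons.

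Btg2 and Plk2 are also immediate early genes, which respond within minutes to growth signals and handling. Of 12 other immediate early genes, 1 was called higher and 2 lower in Tfam KO islets, 2 higher in Clec16a KO islets on RFD, 1 in each direction on HFD and in Mfn DKO livers, and 4 higher and 1 lower in Tfam KO livers. The count in Tfam KO islets is close to the 20.9% called among all genes, which was 7.52%, 9.57%, 9.87% and 29.3% in the other comparisons in that order. Atf3, which is also a stress response factor, was the call in the higher direction in Tfam KO islets (log2 3.88 ± 0.29, edgeR adjusted p = 9.96e-08), where Nr4a1 (-0.91 ± 0.27, edgeR adjusted p = 0.0251) and Dusp1 (-0.42 ± 0.11, edgeR adjusted p = 0.0124) were lower, in the direction of Btg2. In Tfam KO livers Atf3, Jun, Fos and Ier3 were higher, by 4.57, 1.41, 1.59 and 1.36, and Ier2 was lower, by -0.99.

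Within groups, the 10 genes varied together in livers and little in Clec16a islets. After each group's mean was subtracted, the median Pearson r over the 45 pairs of genes was 0.46 in the 13 livers, 0.25 in the 14 Tfam islet libraries and 0.08 in the 19 Clec16a islet libraries. These are descriptions over libraries that share depth and preparation. The closest liver pairs were Mdm2 with Zmat3 (0.97) and Ccng1 with Zmat3 (0.93). Without the 3 Tfam KO livers the liver median was 0.09 and the highest pair 0.75, so the liver pattern rests on those 3 libraries. In Tfam islets the closest pairs were Cdkn1a with Phlda3 (0.83) and Mdm2 with Ccng1 (0.81). Without Clec16a KO replicate 4 on HFD, the Clec16a islet median was 0.17.

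**Figure D5:**
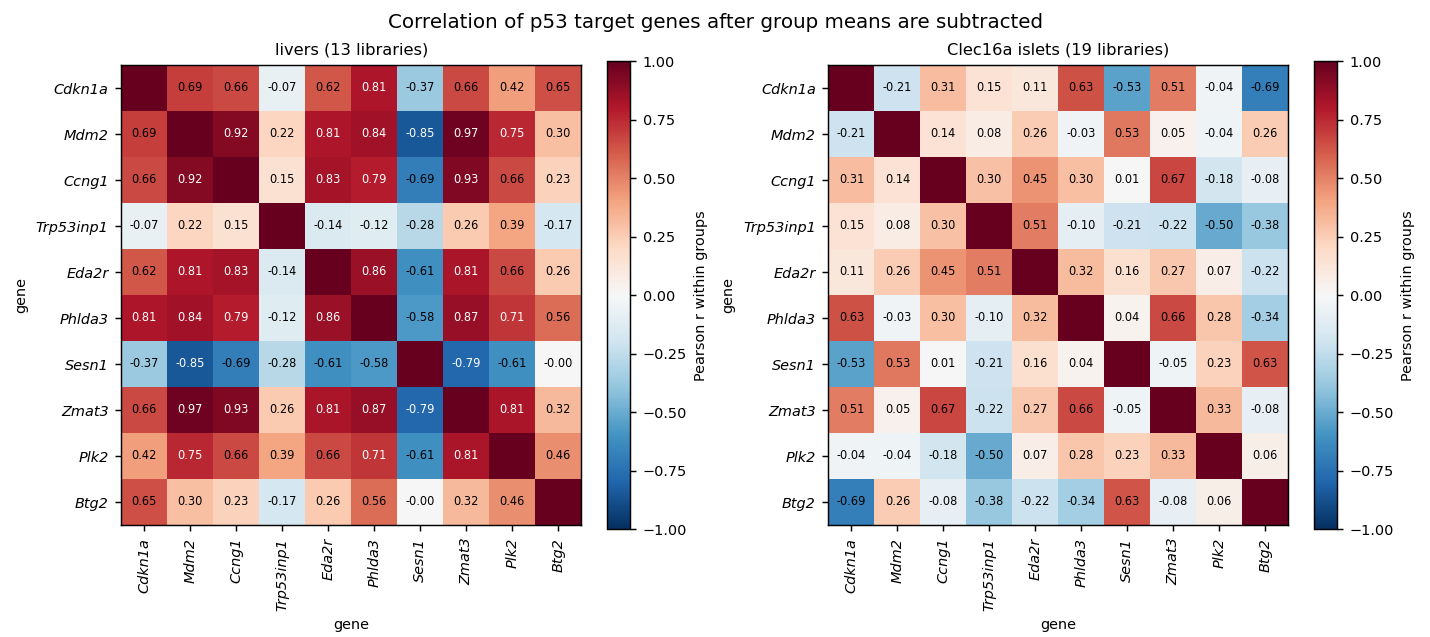
Pearson r of log2 CPM for each pair of the 10 genes after group means were subtracted, in the 13 livers and in the 19 Clec16a islet libraries, from blue (-1) to red (1). The liver panel is mostly red, with Sesn1 in blue, and its median of 0.46 exceeds the 0.08 of the Clec16a islets.

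Over all 46 libraries and 14503 genes that passed the filter in every experiment, the genes whose group-centred pattern was most like that of Cdkn1a were Slc35c1 (r = 0.80), Etv5 (0.77), Adm2 (0.76), Fam129a (0.76) and Jdp2 (0.75). Of the other 9 genes described here Phlda3 was the closest, at rank 8 (0.74), while Mdm2 ranked 1154 (0.41) and Trp53inp1 6965 (0.05). The pattern of Mdm2 was most like those of Tnpo2 (0.91), Rragd (0.89), Zmat3 (0.88), Zfand2a (0.88) and Aebp2 (0.85). Both rankings include Clec16a KO replicate 4 on HFD and the Tfam KO livers, were not repeated without them, and may rest on them. Within experiments, Cdkn1a and Phlda3 correlated at 0.83 in Tfam islets, 0.63 in Clec16a islets and 0.81 in livers. Their value was 0.05 without Clec16a KO replicate 4 on HFD and 0.75 without the Tfam KO livers. Mdm2 and Zmat3 correlated at 0.79, 0.05 and 0.97 in the same order, and at 0.16 and 0.71 without those libraries.

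Scaling bears on the direction of small differences in these data. With total counts in place of TMM the median log2 difference of all genes moved to 0.20 in Tfam KO islets, 0.03 and 0.12 in Clec16a KO islets on RFD and HFD, 0.21 in Mfn DKO livers and 0.46 in Tfam KO livers. The share of called genes that were higher moved from 55.5% to 91.0% in Tfam KO islets, from 58.7% to 83.5% in Clec16a KO islets on HFD, from 53% to 82.3% in Mfn DKO livers, from 61.6% to 88.9% in Tfam KO livers and from 36% to 93.0% between the liver knockouts. In Clec16a KO islets on RFD it moved from 53% to 59.6%. The rises of Cdkn1a, Eda2r, Phlda3 and Ccng1 in the Tfam knockouts exceed these shifts. In Tfam KO islets the shift of 0.20 is as large as or larger than the differences of Plk2 and Mdm2, and it takes the Sesn1 difference of -0.32 to -0.11. Cdkn1a and Sesn1 overlap other annotated genes (a gene on the opposite strand at Cdkn1a and one on the same strand at Sesn1), and whether counting used strand is not given in the sources used here.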

How the data were processed

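Bulk RNA-seq of 46 mouse libraries (14 Tfam islet, 19 Clec16a islet, 13 liver) was used. Per the file headers, the authors deposited raw counts, TPM and CPM for 55487 genes. The deposited counts, all whole numbers, were tested without change. The deposited CPM equalled the count over the library total. The deposited TPM served only to compare levels between genes and to sum markers. The submitters' processing notes name STAR 2.6.1b, RSEM 1.3.1, featureCounts, DESeq2, FastQC, MultiQC and GRCm38, without roles. GENCODE M21 held 55141 of these genes and gave their positions.

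Groups came from the labels. Each experiment was fitted in R 4.3.3 with edgeR 4.0.16 (quasi-likelihood F-test, TMM, filterByExpr), 1 mean per group, with sex as a term for Tfam islets; livers and islets were compared in a joint fit. P-values are two-sided and adjusted over all genes tested (Benjamini-Hochberg), and a gene was called at 0.05 or less. The standard error is the log2 fold change over the square root of F. Log2 CPM used a prior count of 2. All 10 genes passed the filter in every fit. DESeq2 1.42.0 was an alternative. The code was tested on simulated data. Total counts were 55223041 to 83342809 in Tfam islets, 16235173 to 55810879 in Clec16a islets and 41961114 to 56894510 in livers. Reads carry no molecular identifiers.

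The 10 genes and all gene lists were chosen with earlier results of these data known, so their directions are no independent evidence. All 10 were tested in every comparison. In some comparisons, among them those in Clec16a islets and between the liver knockouts, not all 10 are given by name or value. Also named are at most 4 called genes of each other list, those with the smallest adjusted p, and the 5 genes most like Cdkn1a and Mdm2. Other genes named, such as those beside a count, were chosen after their values were seen.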

Additional observations from a re-analysis of the deposited data

Results flagged for a closer look

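Of 80 groups of 4 to 10 libraries examined for the 10 genes, 7 held a library far from the others, where chance alone flags about 1 in 20. Cdkn1a was at 9.10 CPM in control liver replicate 5, against 1.41 to 3.92 in the other 5 controls. In Mfn DKO livers Mdm2 was at 34.7 CPM in replicate 2 (others 40.1 to 40.4) and Eda2r at 2.05 in replicate 1 (others 3.40 to 3.67). Phlda3 was at 11.5 CPM in female Tfam KO islet replicate 1 (others 6.3 to 7.12). Plk2 was at 19 CPM in Clec control islet replicate 1 on RFD (others 14.4 to 14.8). Btg2 was at 163 CPM in Clec control islet replicate 6 on HFD (others 128 to 139) and at 149 in Clec16a KO islet replicate 4 on HFD (others 96.5 to 105.9), the library that also lacked the Cdkn1a rise.

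The effect of Tfam loss differed between livers and islets by the test of the difference for 7 genes. The liver effect minus the islet effect was 2.64 for Cdkn1a, 0.83 for Mdm2, 1.14 for Ccng1, 1.75 for Eda2r, 1.38 for Zmat3, 1.90 for Plk2 and 2.07 for Btg2 on the log2 scale. The tissues come from separate experiments, so tissue and experiment cannot be told apart, and Tfam itself fell further in livers.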

How the results depend on the processing

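No result for the 10 genes reversed its direction while called. Of the single-gene results under an alternative, 2129 kept their side of the threshold, 48 lost it and 48 gained it. The number of the 10 genes called moved by more than 1.5 times as follows, leaving aside single libraries and the block. Between the sexes it was 1 in place of 0 with no filter on low counts and in the DESeq2 Wald test. In Clec16a KO islets on RFD it was 2 in place of 1 with DESeq2 size factors, with at least 10 counts in every library, in the Wald test and with only the groups compared. In Mfn DKO livers it was 5 in the Wald test and 9 with only the groups compared, in place of 3. Between the liver knockouts it was 4 in the Wald test and 3 with total count scaling, in place of 0. That scaling was chosen after seeing the data. The share of all genes called is given above for some of these fits only. Where it is missing, a moved count cannot be read as particular to the target genes.

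Same-numbered libraries of different groups had a median r of 0.07, -0.02 and 0.09 in the 3 experiments (lowest -0.15, -0.25 and -0.34). For libraries of different number the medians were -0.01, -0.01 and -0.05. These values give little sign that numbers pair samples, but cannot exclude it. With the replicate block the counts were 0 in Mfn DKO livers, 2 in Tfam KO livers and 4 for livers against islets. They were within 1.5 times of the main count elsewhere. These fits have fewer residual degrees of freedom. The share of all genes that passed with the block is not given here. The lower counts therefore cannot be read as particular to the target genes.

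With 1 library left out the counts ranged from 8 to 8 in Tfam KO islets, 1 to 1 on RFD, 2 to 5 on HFD, 2 to 3 in Mfn DKO livers, 6 to 10 in Tfam KO livers, 0 to 7 between the liver knockouts and 2 to 9 for livers against islets, and were 0 in the sex, diet and interaction comparisons. For some of these fits only, the share of all genes called is given above. Depth limits Eda2r, whose counts fell as low as 3.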

Other observations

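The mean log2 difference of the 10 genes from the controls, taken per library, gives a measure of their joint level. It was 0.34 to 0.83 in female and 0.94 to 1.10 in male Tfam KO islets, where control libraries ran from -0.20 to 0.18. In Clec16a KO islets it was 0.36 to 0.50 on RFD and 0.03 to 0.61 on HFD, against -0.40 to 0.18 in Clec control libraries. Without Cdkn1a the KO values were 0.09 to 0.22 on RFD and 0.003 to 0.35 on HFD. These overlapped the Clec control libraries, which then ran from -0.38 to 0.22. In livers the mean over all 10 genes was 0.99 to 1.40 in Mfn DKO and 1.80, 2.82 and 0.95 in Tfam KO replicates 1, 2 and 3, against -0.20 to 0.35 in controls. The integrated stress response score of the same Mfn DKO livers was 2.24 to 2.49, above that of Tfam KO liver replicate 3 at 1.90, whose joint level of the 10 genes was close to theirs.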
